A study of Mus musculus with 6 samples.

Results

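The interferon-inducible GTPases described here are 10 mouse genes, the guanylate-binding protein (GBP) genes Gbp2, Gbp3, Gbp4, Gbp5, Gbp6, Gbp7 and Gbp9 and the immunity-related GTPase (IRG) genes Irgm1, Igtp and Iigp1. They were chosen by name, and all 10 were found among the 55335 genes of the count tables through their Ensembl identifiers in GENCODE M21. RNA was sequenced from B16, a melanoma line from C57BL/6 mice, in 3 scrambled control and 3 IFNγR1KO cultures. Every culture carried a lentiviral CRISPR-Cas9 vector and had been through puromycin selection and single-cell cloning. The guide of the scrambled control cells targets GFP, and that of IFNγR1KO cells targets Ifngr1, which encodes the ligand-binding chain of the IFN-γ receptor. The labels give scrambled control cells as WT. The cultures were seeded overnight in triplicate with no interferon named as added, and no label states if the IFNγR1KO cultures, numbered 10, 11 and 12, derive from 1 clone or several.

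GBPs and IRGs are large and mid-sized GTPases that cells make in response to interferon. They gather on the vacuoles of intracellular parasites and bacteria and on free bacteria in the cytosol, and help to break these membranes open. IFN-γ binds a receptor of IFNGR1 and IFNGR2 chains, the kinases JAK1 and JAK2 pass the signal on inside the cell, and it reaches gamma-activated sequences (GAS) in target promoters. IRF1, itself induced by interferon, binds interferon-stimulated response elements (ISRE). In resting cells of most tissues these genes are expressed at a low level.

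The start regions of the members are shown because they are the stretches through which interferon acts on such genes. Promoters of 300 bases, from 250 before to 50 after the start, were taken from RefSeq on GRCm38.p6, and 6 of the 10 members had an entry. The letters TTCNNNGAA were searched as GAS and GAAA, any 2 bases and GAAA as ISRE, on both strands. All 6 members held an ISRE match, Gbp3 in 1 of its 2 promoters, and Gbp5, Gbp7 and Igtp held a GAS match as well. Of all 32851 promoters in the table, 3.44% held the ISRE letters, 8.30% the GAS letters and 0.454% both. Counted by gene, as the members are, the shares of 27025 genes were 3.99%, 9.55% and 0.540%. The stretches below run 5′ to 3′ along the gene with the matches in capitals. Capitals that begin and end with TTTC are ISRE letters read on the other strand, and in Gbp3 and Irgm1 a pair of ISRE matches overlap.
Gbp2 (chr3:142620589-142620628, plus strand): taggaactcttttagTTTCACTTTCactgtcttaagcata
Gbp3 (chr3:142559984-142560029, plus strand): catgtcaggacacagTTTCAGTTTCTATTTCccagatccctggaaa
Gbp7 (chr3:142530215-142530307, plus strand): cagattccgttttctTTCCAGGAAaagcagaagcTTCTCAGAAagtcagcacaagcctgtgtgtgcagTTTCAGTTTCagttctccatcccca
Irgm1 (chr11:48871421-48871465, minus strand): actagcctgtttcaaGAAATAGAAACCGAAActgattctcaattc
Igtp (chr11:58199496-58199546, plus strand): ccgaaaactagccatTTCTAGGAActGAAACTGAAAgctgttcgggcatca
Irgm2 (chr11:58214887-58214937, plus strand): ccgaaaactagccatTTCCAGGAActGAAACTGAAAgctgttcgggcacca
Tgtp1 (chr11:48992299-48992349, minus strand): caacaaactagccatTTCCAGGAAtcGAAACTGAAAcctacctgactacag
Tgtp2 (chr11:49064258-49064308, minus strand): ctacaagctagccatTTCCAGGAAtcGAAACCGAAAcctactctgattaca
The last 4 are Igtp and 3 IRG genes that are not members, set side by side because the same arrangement recurs in them: a GAS match, 2 bases, then an ISRE match. In Gbp7 the nearer of its 2 GAS matches lies 25 bases before the ISRE match. A match is a run of letters, and binding was not measured.

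A second stretch separates the members by kind. Each encodes a nucleotide-binding loop, the P-loop, and the 24 bases of its 8 codons were read from the GENCODE M21 coding sequences, with the seventh codon in capitals.
Gbp2: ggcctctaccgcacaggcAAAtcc
Gbp4: ggatggtcccatacagggAAGtcc
Gbp6: ggattgtaccgtacagggAAGtcc
Gbp9: ggattgtaccgtacagggAAGtcc
Irgm1: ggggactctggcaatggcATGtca
Igtp: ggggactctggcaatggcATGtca
Irgm2: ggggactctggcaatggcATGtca
Tgtp1: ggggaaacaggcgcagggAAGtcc
In the GBPs and in the IRG effectors of the Tgtp kind this codon is AAA or AAG, for lysine. In Irgm1, Igtp and Irgm2, the regulatory IRGs of the Irgm kind, it is ATG, for methionine. The loop of Gbp6 and Gbp9 is the same run of letters, and over the aligned coding bases Gbp4, Gbp6 and Gbp9 are 90.2% to 90.9% identical in pairs, against 61.3% for Gbp2 and Irgm1.

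The scrambled control libraries held 9402640 to 10579788 counts and the IFNγR1KO libraries 6698956 to 7409479, so that every IFNγR1KO library was shallower. A count was worth 0.0966 to 0.109 CPM (counts scaled by TMM to a shared library total) in scrambled control and 0.135 to 0.142 CPM in IFNγR1KO libraries. Libraries were not equally alike within a group: the chi-square per degree of freedom between libraries was 2.62 for IFNγR1KO replicates 10 and 11 and 15.02 to 18.45 for either against replicate 12, and scrambled control replicate 3 stood apart from the other two (20.4 to 22.7, against 9.25). Melanoma cell markers were counted in every library, with none of 7 called different, whereas the leukocyte markers Ptprc, Adgre1, Cd14 and Itgam had at most 1 count. Csf1r, Cd68 and Lyz2 were counted in every library, and the 7 leukocyte markers summed to 13.9 to 15.2 CPM in scrambled control and 11.5 to 13.3 CPM in IFNγR1KO libraries. Of 6 T and NK cell markers and 7 fibroblast and endothelial markers, 5 and 4 had no count in any library. The guides' target Ifngr1 had 154, 144 and 172 counts in scrambled control and 80, 85 and 82 in IFNγR1KO libraries. Its level was 15.9 ± 1.35 CPM against 11.5 ± 0.0901 CPM (SD over 3 libraries). The difference was -0.47 on the log2 scale, with an adjusted p of 0.0729 in edgeR. The groups did not overlap, but the transcript was still counted in IFNγR1KO cells. RNA counts give no measure of the receptor protein.

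In scrambled control cells the members spanned a wide range of basal levels. Per kb of exons, which allows levels of different genes to be compared, Gbp2 was highest at 9.42 ± 1.59 CPM per kb (SD, n = 3), above 61.3% of all tested genes. Igtp followed at 5.82 ± 0.325 and Irgm1 at 5.51 ± 0.268 CPM per kb, near the middle of the tested genes, and the libraries of these 2 genes overlapped. A lower tier held Gbp3 at 1.25 ± 0.339, Iigp1 at 1.04 ± 0.284 and Gbp4 at 0.825 ± 0.116 CPM per kb, each overlapping with the next. Gbp7 was lower still at 0.358 ± 0.0808 CPM per kb, with no overlap with Gbp4. Gbp6 (0.108 ± 0.00682) and Gbp9 (0.0729 ± 0.0278) overlapped with each other, and Gbp5 was last at 0.0154 ± 0.0150 CPM per kb. The 3 members at the foot of this order had between 0 and 7 counts in a library.

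**Figure D1:**
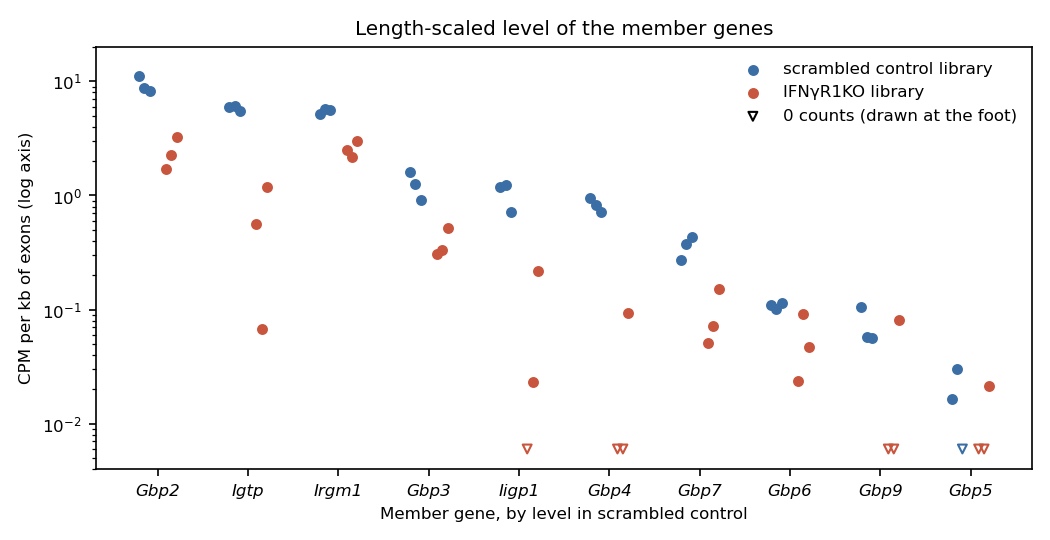
Level of the 10 member genes in CPM per kb of exons on a log axis, in order of their mean level in scrambled control; each point is a library and open triangles mark libraries with 0 counts. Gbp2, Igtp and Irgm1 lie at 5 CPM per kb or more in scrambled control, and the IFNγR1KO points of Gbp2, Gbp3, Gbp4, Gbp7, Irgm1, Igtp and Iigp1 all lie below their control points.

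The order depended on the length used for some genes. On the longest transcript in place of all exons, Irgm1 was at 8.35, Iigp1 at 1.94 and Gbp4 at 1.36 CPM per kb. Of the 100-base windows of Gbp6 transcripts, 64.5% also occur in another gene, mostly Gm43302, whose exons cover 29.0% of its exonic bases on the same strand. Gm43302 had no count in any library. Over the windows found in no other gene the level of Gbp6 was 0.289 CPM per kb, and how many of its reads were left uncounted is not known. For Gbp7 the exons of Gm43802 cover 11.3% of the exonic bases, and for Igtp those of Irgm2 cover 8.01%. Gbp4 and Gbp9 share under 2% of their windows with other genes, in spite of their like coding sequences.

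All 7 members with enough counts to be tested were lower in IFNγR1KO cells and past the thresholds for a call, an adjusted p under 0.05 and a log2 fold change below -1 in edgeR's quasi-likelihood test. The share of all 13642 tested genes called lower was 1.96%. Over the 7, the log2 fold change ran from -1.11 for Irgm1 to -4.65 for Gbp4, with a median of -1.97 against 0.00 over all tested genes. Of the 7, Gbp3, Gbp4, Gbp7, Igtp and Iigp1 passed the filter on low counts only through their scrambled control libraries, so they had to be either lower or near the filter's limit, and the share among tested members is a description. In all 7 tested members every IFNγR1KO library lay below every scrambled control library, which held for 16.6% of all tested genes. With the untested Gbp6, this held in 8 of the 10 members. Summed over the 10 members, the level was 92.5, 88.4 and 79.9 CPM in scrambled control and 21.3, 20.6 and 33.3 CPM in IFNγR1KO replicates 10, 11 and 12. In bulk RNA, fewer cells that express a gene and less RNA in each cell cannot be told apart.

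**Figure D2:**
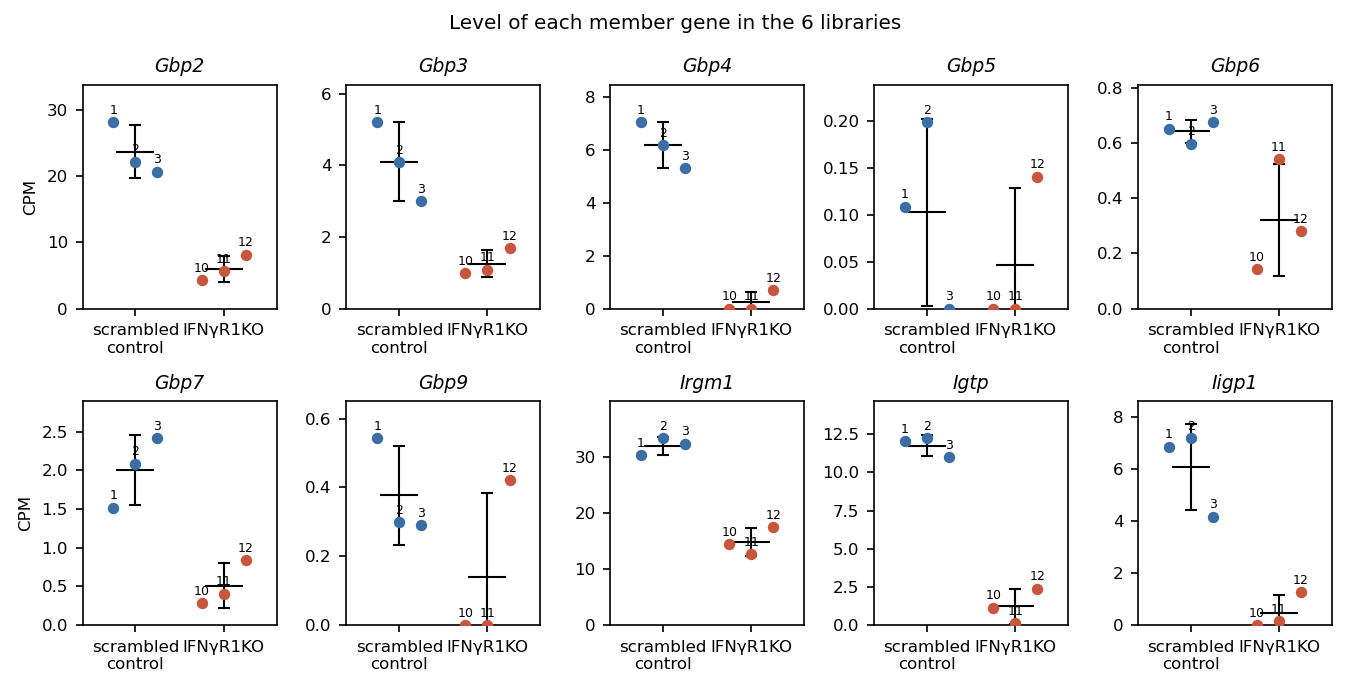
CPM of each member gene in the 3 scrambled control (blue) and 3 IFNγR1KO (red) libraries, numbered by replicate, on linear axes from 0; bars are the mean ± SD of 3 libraries. The groups are separate in all panels except Gbp5 and Gbp9, and replicate 12 is the highest IFNγR1KO library in every panel except Gbp6.

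Of the GBPs on chromosome 3, Gbp2 was the most abundant. Its lipid-anchored protein is a main GBP on parasite vacuoles and around cytosolic bacteria. It had 260, 223 and 214 counts in scrambled control and 30, 42 and 58 in IFNγR1KO libraries, with no overlap. The level fell from 23.7 ± 3.99 to 6.04 ± 1.97 CPM, a log2 fold change of -1.97 (SE 0.231, adjusted p = 0.000206), which is 3.91-fold lower (95% interval 2.77 to 5.54). Gbp3, a GBP that lacks such an anchor, had 48, 41 and 31 counts in scrambled control and 7, 8 and 12 in IFNγR1KO libraries. It fell by 1.69 on the log2 scale (SE 0.348, adjusted p = 0.00652), or 3.22-fold (1.91 to 5.44), again with separate groups. Gbp7 had 14, 21 and 25 counts against 2, 3 and 6, a log2 fold change of -1.95 (SE 0.457, adjusted p = 0.0132). At these counts the call was the least secure among the members: without scrambled control replicate 2, IFNγR1KO replicate 10 or IFNγR1KO replicate 11 the adjusted p was 0.0554, 0.0726 and 0.0744, with fold changes of -1.93, -1.68 and -1.79. Gbp5, a prenylated GBP linked to inflammasome activation in macrophages, was close to absent: it had 1, 2 and 0 counts against 0, 0 and 1, too few for any comparison. The 3 tested genes of this cluster thus had log2 fold changes between -1.69 and -1.97, and their intervals overlap.

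The GBPs on chromosome 5 hold Gbp4, which had the largest fold change among the tested members. It had 65, 62 and 55 counts in scrambled control, and 0, 0 and 5 in IFNγR1KO replicates 10, 11 and 12. Its level of 6.18 ± 0.871 CPM became 0.234 ± 0.406 CPM, a log2 fold change of -4.65 (SE 0.580, adjusted p = 0.000312), or 25.04-fold lower with a 95% interval of 10.5 to 59.9. Without replicate 12 the IFNγR1KO libraries held no count of Gbp4, and against a floor of 3 counts per library it was at least 14.8-fold lower, while without replicate 11 the log2 fold change was -4.06. Gbp6 and Gbp9 were too rare to be tested. Gbp6 had 6, 6 and 7 counts against 1, 4 and 2, with levels of 0.642 ± 0.0406 and 0.322 ± 0.203 CPM that did not overlap. Gbp9 had 5, 3 and 3 counts against 0, 0 and 3, and here the groups overlapped, IFNγR1KO replicate 12 lying above 2 scrambled control libraries. With no filter on low counts, edgeR gave adjusted p of 0.533 for Gbp6, 0.540 for Gbp9 and 0.780 for Gbp5, so no difference was detectable for these 3 genes at this depth.

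Among the IRGs, the 3 members differed widely in how much was left. Irgm1, a regulatory IRG needed for resistance to mycobacteria and for the control of other IRGs, was the most abundant member by CPM. It had 279, 335 and 335 counts in scrambled control and 102, 93 and 124 in IFNγR1KO libraries. The level went from 32.0 ± 1.56 to 14.8 ± 2.44 CPM, a log2 fold change of -1.11 (SE 0.162, adjusted p = 0.00087), or 2.16-fold (1.69 to 2.75). Irgm1 therefore passed the fold limit narrowly, and without IFNγR1KO replicate 11 it was at -0.99, outside the limit, with an adjusted p of 0.00941.

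Igtp (Irgm3), a regulatory IRG of the endoplasmic reticulum, had the same P-loop letters as Irgm1. Per kb of all exons the basal levels of the 2 genes were close, at 5.82 for Igtp and 5.51 for Irgm1. On the longest transcript Igtp was at 5.82 and Irgm1 at 8.35 CPM per kb. Igtp had 111, 123 and 114 counts in scrambled control and 8, 1 and 17 in IFNγR1KO libraries, which lay far below. The log2 fold change was -3.27 (SE 0.417, adjusted p = 0.000355), or 9.62-fold lower (5.14 to 17.99), and its log2 interval of -4.17 to -2.36 lies below that of Irgm1, -1.46 to -0.76. Without IFNγR1KO replicate 12 it was -4.21. Iigp1 (Irga6), an effector that coats parasite vacuoles, lies on chromosome 18 away from the others. It had 63, 72 and 43 counts against 0, 1 and 9, a log2 fold change of -3.66 (SE 0.586, adjusted p = 0.00153), or 12.6-fold lower (5.23 to 30.5). Without replicate 12 a lone count remained in IFNγR1KO, and scrambled control was 86.7 times as high, with a 95% counting interval of 15.4 to 3443.

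**Figure D3:**
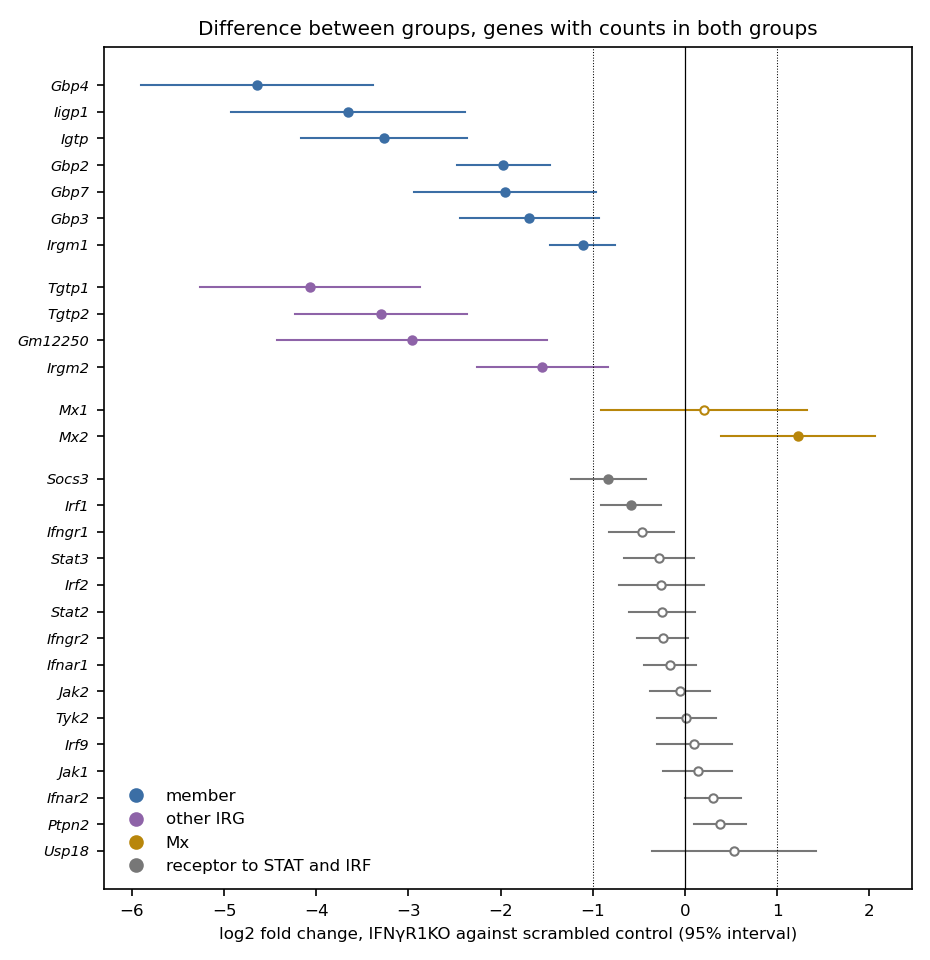
Log2 fold change of IFNγR1KO against scrambled control with 95% intervals for tested members, other listed IRG genes, Mx genes and genes from interferon receptor to STAT and IRF. Filled points have an adjusted p under 0.05 and dotted lines mark -1 and 1. Genes with no count in IFNγR1KO cells are left out; members run from -1.11 (Irgm1) to -4.65 (Gbp4), and no receptor to STAT and IRF gene passes -1.

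The fold changes were set beside the start regions. Igtp and Gbp7, the tested members with both GAS and ISRE matches, were at -3.27 and -1.95, and Gbp2, Gbp3 and Irgm1, with ISRE matches alone, were at -1.97, -1.69 and -1.11. The 2 ranges of point values overlap between -1.97 and -1.95. The 95% interval of Gbp7, -2.94 to -0.96, holds the fold changes of Gbp2, Gbp3 and Irgm1. That of Igtp, -4.17 to -2.36, holds none of them. Gbp4 at -4.65 and Iigp1 at -3.66, the tested members with the largest fold changes, had no promoter entry and are not in this comparison. Among the other genes that carry the close GAS and ISRE arrangement of Igtp, Tgtp1 was at -4.07, Tgtp2 at -3.30 and Irgm2 at -1.55. Gm12250, with a GAS match 6 bases from an ISRE match, was at -2.96. Its promoter entry, chr11:58183593-58183892, lies apart from the counted gene, which starts at 58187739. Irgm2 has the same spacing and nearly the same letters as Igtp, and its 95% interval of -2.26 to -0.83 lies above that of Igtp. Differences between genes were not tested. The P-loop kinds were also unequal within themselves, since Irgm1, Irgm2 and Igtp ran from -1.11 to -3.27. These are descriptions of few genes.

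The level that remained differed between IFNγR1KO libraries. Replicate 12 was the highest of the 3 in all 7 tested members, with a median of 34.4% of the scrambled control mean, against 14.1% in replicate 10 and 20.2% in replicate 11. Igtp was at 9.66%, 1.15% and 20.3% in replicates 10, 11 and 12, and Irgm1 at 45.3%, 39.4% and 54.5%. Over the 12 called GBP and IRG genes of the lists, members included, replicate 12 was highest in 11, with medians of 9.31%, 1.97% and 27.7%. In 57 genes outside the lists that were lower by more than 2 on the log2 scale, the medians were 13.1%, 11.9% and 15.5%. Replicate 12 was highest in 21 of them and replicate 10 in 23. The GBP and IRG genes were not held to that limit, so the medians of the 2 sets are not directly comparable. Replicate 12 is the library that stood apart from replicates 10 and 11 in its counts as a whole. Without it all 7 tested members were still called lower, with a fold change of -1.24 for Irgm1, -1.96 for Gbp3, -2.25 for Gbp2 and -2.50 for Gbp7. What sets replicate 12 apart was not tested, and the labels give no difference between the 3 cultures.

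**Figure D4:**
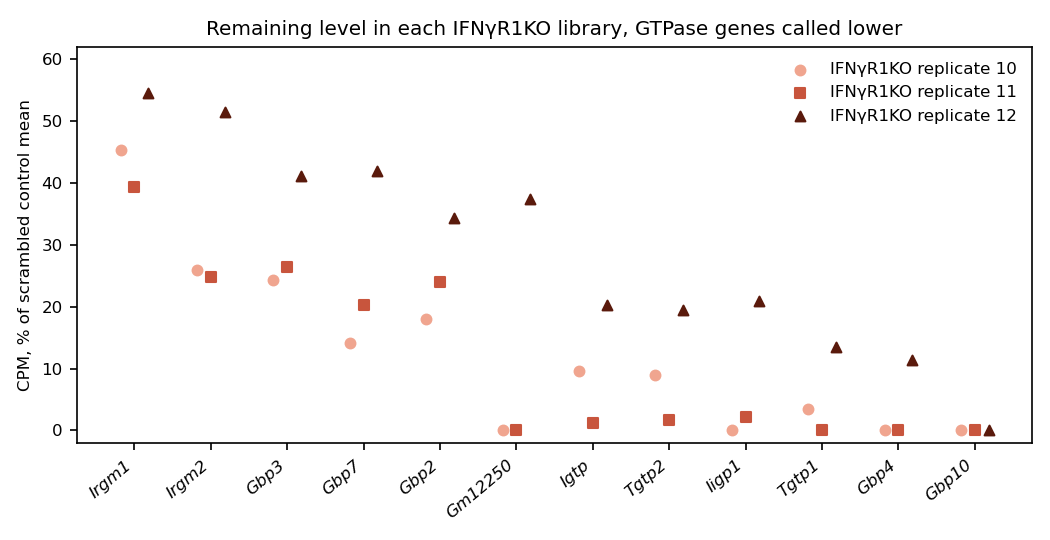
CPM of each listed GBP or IRG gene called lower, in each IFNγR1KO library as a percentage of the scrambled control mean. Replicate 12 (triangles) is highest for 11 of the 12 genes, and Gbp10 is at 0 in all 3 libraries.

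Of the members' listed relatives among the GBP and IRG genes, 5 were tested and called lower, where 1.96% of all tested genes were. All but Irgm2 passed the filter only through scrambled control, which left little room for another outcome. Of the other GBP genes, Gbp10 was the one tested, with 18, 33 and 15 counts in scrambled control and none in IFNγR1KO libraries, at least 5.33-fold lower against a floor of 3 counts per library (adjusted p = 0.00139). Of its windows, 73.5% also occur in another gene. Of the other listed IRG genes 4 of 4 tested were called lower. Tgtp1 and Tgtp2 (both Irgb6) had 47, 39 and 36 against 1, 0 and 4 counts, and 88, 79 and 66 against 5, 1 and 11. They share 70.3% and 76.8% of their windows, so reads could have been split between them or lost from both. Their log2 fold changes were -4.07 (adjusted p = 0.000521) and -3.30 (adjusted p = 0.000419). Without IFNγR1KO replicate 12 scrambled control held 59.4 times the level of Tgtp1, on a lone IFNγR1KO count (95% counting interval 10.5 to 2366), and Tgtp2 was at -4.20. Irgm2, which guards the Golgi against other IRGs, had 53, 40 and 52 counts against 9, 9 and 18, a fold change of -1.55 (adjusted p = 0.00784), which was -1.34 with an adjusted p of 0.0524 without IFNγR1KO replicate 11. Gm12250 (Irgb10), an IRG that attacks bacterial membranes, is annotated as a processed pseudogene. Its counts were 24, 24 and 30 against 0, 0 and 7, a fold change of -2.96 (adjusted p = 0.0117). Without IFNγR1KO replicate 12 it had no count left and was at least 6.32-fold lower. Its call was lost without IFNγR1KO replicate 11 (-2.36, adjusted p = 0.0561) and without scrambled control replicate 2 (-3.03, adjusted p = 0.0529).

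The remaining GBP and IRG genes of the lists were too rare to test. Ifi47, an IRG that the lists did not hold, was tested and is given below with the flanking genes. Gbp8 had 5, 9 and 4 counts and Gm4951 had 9, 5 and 3 in scrambled control, with none in IFNγR1KO libraries. Gbp11 had 10, 8 and 9 against 0, 0 and 5. Irgc1, the IRG of the testis, had no count in any library. The genes of the Mx proteins, dynamin-like GTPases induced mainly by type I and III interferon, were not called lower. Mx1 had 12, 17 and 9 counts in scrambled control and 18, 3 and 11 in IFNγR1KO libraries (adjusted p = 0.833). It showed no steady direction, with a log2 fold change of 0.21 over all libraries and -0.40 without IFNγR1KO replicate 10. Mx2, annotated as a polymorphic pseudogene, had 11, 9 and 6 against 14, 19 and 12. Its fold change was 1.23 with an adjusted p of 0.0484, in a direction in which 3.25% of tested genes were called. The call of Mx2 was lost in DESeq2, with no filter, with a filter at 1 CPM, after thinning and in 5 of the 6 fits that left out a library.

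Of 19 genes from the interferon receptors to STAT and IRF proteins, which carry or check the signal to these promoters, 16 were tested. Their median log2 fold change was -0.20, and none of the 16 was called different. Over all tested genes 1.96% were called lower and 3.25% higher, so a list of 16 with no call lies near those shares. Irf1, the IRF that acts on many GBP promoters, had an adjusted p of 0.0203 at -0.59, and Socs3, an inhibitor of JAK signaling, 0.011 at -0.83. The share of tested genes that were lower at an adjusted p under 0.05 was 7.62%, and higher 7.73%. Irf1 went from 28.0 ± 0.395 to 18.7 ± 2.16 CPM with no overlap. Its adjusted p was 0.0667 without scrambled control replicate 2, 0.109 without IFNγR1KO replicate 10 and 0.094 without replicate 11, and that of Socs3 was 0.0728 without replicate 11. Ifngr2, Ifnar1, Jak1, Jak2, Tyk2, Stat2, Stat3, Irf2 and Irf9 lay between -0.28 and 0.14, and Ifnar2 (0.31), Ptpn2 (0.38) and Usp18 (0.53) above them, none past the threshold. Irf7 and Irf8, too rare to test, had 7, 11 and 5 against 0, 0 and 1 counts, and 8, 9 and 8 against 0, 0 and 1. With no filter on low counts Irf7 and Irf8 were called lower, and in DESeq2 Irf8, where 1.57% and 1.78% of all genes tested in those fits were called lower.

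The members sit in 5 clusters on chromosomes 3, 5, 11 and 18, and neighbours outside the GTPase lists were examined for a shared difference along the chromosome. Within 500 kb of the clusters 45 such genes were tested, with a median log2 fold change of -0.02. Of them 4 were called lower, or 8.89% against 1.96% of all tested genes, and 1 higher. Next to Irgm1 and the Tgtp genes were Gm12185 (34, 26 and 29 against 0, 0 and 2 counts, fold change -4.82, and no count in replicates 10 and 11), whose exons overlap with those of Tgtp1, and Ifi47 (70, 92 and 68 against 8, 10 and 10, -2.57), itself an IRG (Irgd) that the list did not hold. Mir6381 (-1.59) lies inside Gbp2 on the other strand, and without strand its reads and those of Gbp2 cannot be told apart. Beyond these, 1810065E05Rik near Igtp was lower (-2.05) and 4930438A08Rik higher (2.19). Near Iigp1 and near Gbp4 none of 7 and of 8 tested neighbours was called.

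**Figure D5:**
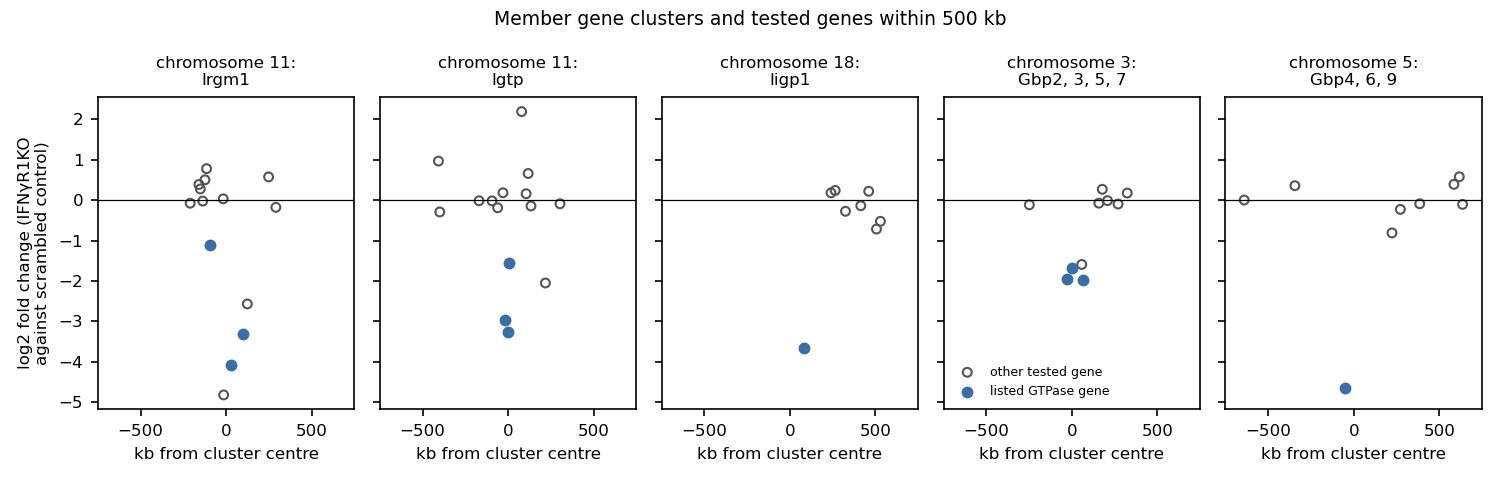
Log2 fold change of tested genes in the 5 member clusters, against the distance of a gene's middle from the cluster's centre in kb; filled points are GTPase genes of the lists and open points other genes within 500 kb. Gbp10, with no count in IFNγR1KO cells, is left out; most open points lie near 0, with a median of -0.02.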

How the data were processed

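RNA was enriched by poly(A) selection and sequenced in pairs. Alignment by the authors was to GRCm38 with STAR 2.7.5a, and the deposited values are raw counts, 1 per gene and library, from HTSeq 0.11.2 (versions from the submitters' processing notes), without normalization. The annotation release and the strand setting are not given in the sources used here. Groups came from the sample labels, and p-values measure the spread between cultures of cloned lines. Where the cultures of a group come from 1 clone, a difference between clones cannot be told apart from one made by the knockout.

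Symbols, exons and coding sequences came from GENCODE M21, which holds 55154 of 55335 identifiers. In R 4.3.3, edgeR 4.0.16 was run on all 6 libraries with filterByExpr (minimum count 10, minimum total 15), TMM scaling, the quasi-likelihood test and Benjamini-Hochberg adjustment over 13642 genes. Calls follow the study's thresholds. DESeq2 1.42.0 (Wald test), the study's tool, was an alternative, with other scalings, filters, thresholds, a thinned depth and leaving out each library. The smallest exact two-sided permutation p for 3 against 3 is 0.1. Intervals on counts and the floor of 3 counts cover counting error only. The fit was first tested on simulated counts.

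The members and all lists were chosen with earlier results of these data known. The text names all members, every tested gene of the GTPase and receptor to STAT and IRF lists, at most 3 called genes a direction from other lists and a cluster's flanks, and the 5 genes nearest to the members' mean pattern. Of the genes so chosen, 1 is not reported here. Untested genes with their counts, and the interferon genes, were named after their values were seen.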

Additional observations from a re-analysis of the deposited data

How the results depend on the processing

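No paired analysis was possible because the groups share no replicate number. The members' log2 fold changes, 83 values under alternatives, were negative in 83, had an adjusted p under 0.05 in 80 and were called lower in 79. No result reversed. The 7 tested members were called lower in DESeq2, under RLE and upper-quartile scaling, with no filter and with a filter at 1 CPM. There were 6 at an adjusted p under 0.01 and after thinning to the smallest total, where Gbp7 did not pass the filter, and 4 (Gbp2, Gbp4, Igtp and Iigp1) when tested against a log2 fold change of 1. Leaving out a library gave 5 to 7 called members (5 without IFNγR1KO replicate 11) and 6 to 7 with an adjusted p under 0.05. The count without overlap between groups was then 8 to 9. It could not fall, since dropping a library cannot make separate groups overlap. For the other listed GBP, IRG and Mx genes, 5 were called lower, and 8 with no filter (Gbp8, Gm4841 and Gm4951 besides). Without a library it was 3 to 5, the 3 without IFNγR1KO replicate 11. The call of 1 higher, Mx2, became 0 in DESeq2, with no filter, with a filter at 1 CPM and after thinning, and 0 to 1 without a library. From receptor to STAT and IRF, the count called lower was 0, 1 in DESeq2, 2 with no filter and 0 to 0 without a library. The count with an adjusted p under 0.05 and lower was 2, then 4 with no filter, 1 after thinning and 0 to 2 without a library, the 0 without IFNγR1KO replicate 11. Beyond the alternatives' own construction, the cause was not tested. The flanks gave 4 called lower of 30 tested within 200 kb and 6 of 85 within 1000 kb. Depth limits Gbp5, Gbp6 and Gbp9: 3 counts are worth 0.418 CPM in IFNγR1KO libraries.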

Other observations

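Genes that work with these GTPases were set beside the shares over all tested genes, 1.96% called lower and 3.25% higher. Of 8 genes of inflammasomes and pyroptosis, 5 were tested, with 1 called lower and 1 higher. Aim2, a sensor of cytosolic DNA, had 25, 27 and 22 counts in scrambled control and 3, 1 and 0 in IFNγR1KO libraries, a log2 fold change of -3.65 (adjusted p = 0.00137, edgeR's quasi-likelihood test). At these counts Aim2 passed the filter only through scrambled control, which left little room for another outcome. Casp4, which encodes the caspase that binds lipopolysaccharide on GBP-coated bacteria, went the other way with 17, 16 and 19 against 51, 42 and 31 counts, a log2 fold change of 1.71 (adjusted p = 0.00193). Both calls stood whichever of the 6 libraries was left out. None of 10 tested genes of the ATG8 conjugation machinery, which loads GBPs and IRGs onto vacuoles, was called in either direction, and their median log2 fold change was 0.05. The atlastins, GTPases of the same dynamin superfamily that shape the endoplasmic reticulum without interferon, were not called either: Atl1 was at 0.18, Atl2 at -0.18 and Atl3 at 0.07. Lists of 10 and of 3 genes with no call lie near the shares over all tested genes.

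The tested genes nearest to the members' mean pattern were ranked by Euclidean distance over the 6 libraries, on log2(CPM + 0.5) centred on scrambled control. They were Psmb8, an immunoproteasome subunit (distance 0.371), Fkbp10, a collagen-folding isomerase (0.424), the unnamed locus Gm12744 (0.449), H2-Aa, an MHC class II chain (0.498), and Zbp1, a sensor of Z-form nucleic acid (0.528). Psmb8 had 53, 62 and 61 counts in scrambled control and 6, 4 and 10 in IFNγR1KO libraries. The members' own distances ran from 0.605 to 2.02. Of 21 interferon ligand genes in the tables, 18 had no count in any library, and the largest count in a library was 2, for Ifnz in IFNγR1KO replicate 11, so no interferon transcript above that level was detected in either group.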
